A study of Solanum phureja with 20 samples.

Results

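Between the diploids and the monoploid of one potato ploidy series, 125 array spots moved in opposite directions in leaf and root tip. In 33 of them RNA was higher in diploid leaflets and lower in diploid root tips than in the monoploid. In the other 92 it was lower in diploid leaflets and higher in diploid root tips. The spots were chosen from the mean log2 ratio of diploid over monoploid on 4 leaf arrays and on 4 root arrays. A spot qualified with a leaf mean of 0.3 or more and a root mean of -0.3 or less, or with a leaf mean of -0.3 or less and a root mean of at least 0.3 and under 1. Spots with a gene symbol other than a LOC number (an NCBI placeholder for a gene without an assigned name) were left out. The 125 spots are 1.02% of the 12271 spots with a value on all 8 arrays, in a table of 32448 spots. They belong to 95 clones, since the array carries each clone as a pair of duplicate spots.

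The tetraploid (4x), the diploids 2xR3 and 2xR5 and the monoploid (1x) form 1 synthetic series of Solanum phureja, a cultivated potato species. All descend by chromosome doubling from a monoploid with 12 chromosomes. The diploid level is represented by 2 lines, and the monoploid and tetraploid levels by 1 line each. Growing leaflets came from 6 plants per line 20 days after planting, and growing root tips were taken 7 days after planting, with the root RNA amplified before labelling. Days in the growth chamber had 15 h of light and 9 h of darkness, at 23.5 °C and 15.5 °C in that order, with air at 50% humidity and dilute nutrient solution every day.

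An autopolyploid carries additional copies of its own chromosome set, so a doubling changes the copy number of every gene alike and leaves the ratio between genes unchanged. Chromosome doubling is commonly accompanied by larger nuclei and cells. A growing leaflet expands and builds photosynthetic tissue, while a root tip holds the root meristem and its elongating daughter cells. Ratios on these arrays are relative, and the median of each array was at most 0.014 in size. In such bulk tissue, fewer cells of a type and less RNA per cell cannot be told apart.

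The 20 arrays were two-colour hybridisations. Replicates 1 and 2 in leaf and replicates 4 and 5 in root were closed loops of 4 arrays, in which 4x and 1x each met both diploids. Leaf replicate 3 consisted of dye-swapped pairs of 4x with 1x and of 2xR5 with 2xR3. The submitters call the replicates biological, but no label ties a replicate to particular plants, so each p-value measures the spread between these RNA samples. An array had 12403 to 18629 spots with a value, and duplicate spots correlated with r between 0.517 and 0.952. Ratios were taken to be Cy5 over Cy3, a likely direction that no label states. If the reverse holds, every direction given here turns and every size stays, and the limit of 1 in root, which bounds 1 set only, would bound the other set. The tissue labels could not be checked, since log ratios give no levels. PSBR, a photosystem II subunit gene of green tissue, had leaf first-doubling values of -0.09 to 0.05 on its spots with all 8 values. The 2 clones these spots belong to had opposite signs in root.

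The first doubling, diploid against 1x, chose these spots, so its values are given as a description. In the 33 spots that were higher in diploid leaflets, the leaf mean ranged from 0.31 to 0.72 with a median of 0.36, a 1.28-fold difference. Their root mean ranged from -0.89 to -0.30 with a median of -0.37, which is 1.29-fold lower. In the other 92 spots the leaf mean ranged from -0.71 to -0.30 with a median of -0.40, and the root mean from 0.30 to 0.90 with a median of 0.48. These medians are 1.32-fold lower in leaf and 1.40-fold higher in root.

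Spots on either side of the threshold had close values. The last spot inside it in the first set had 0.308 in leaf and -0.305 in root, and the first spot outside had 0.305 and -0.298. In the second set the last spot inside had a root mean of 0.30, and the first outside a leaf mean of -0.299 with 0.556 in root. Across all measured spots the SD of the mean was 0.223 in leaf and 0.441 in root.

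Opposite movement was the less frequent pattern. A leaf mean of 0.3 or more in size was found in 1801 spots and a root mean of that size in 3980, and 830 spots had both. Of these, 148 had opposite signs in the tissues and 682 had the same sign, with 389 raised and 293 lowered in both. The 148 comprise the 125 spots described here, 15 spots with other symbols and 8 spots lowered in leaf with a root mean of 1.04 to 3.72. Over all measured spots the leaf and root means correlated at r = 0.278, a description across spots that share their arrays and clones.

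**Figure D1:**
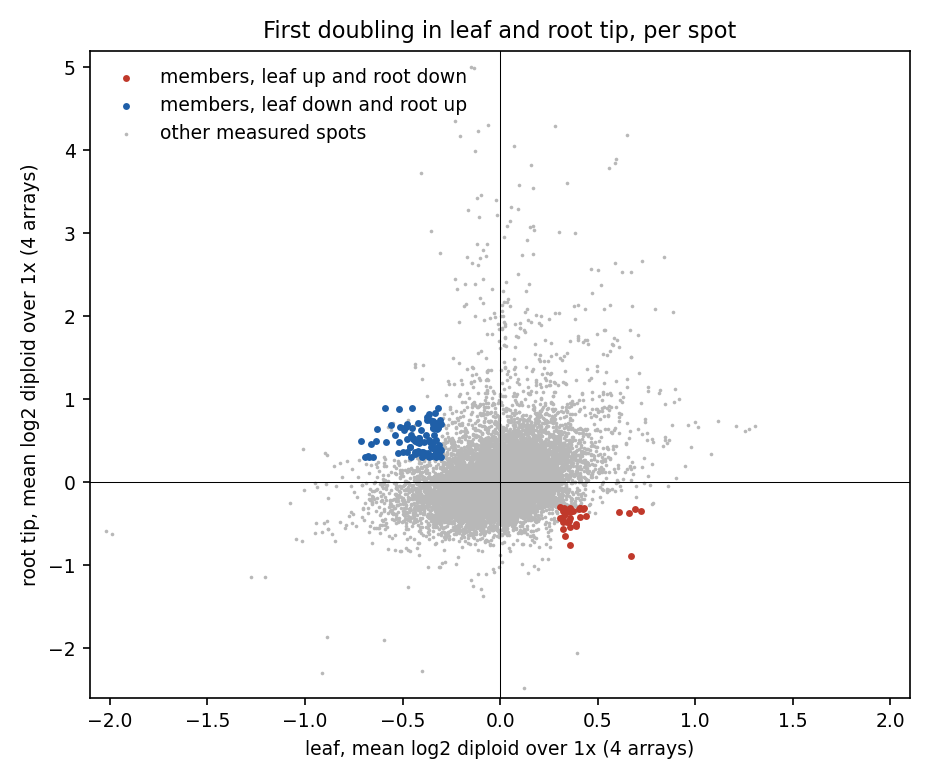
Mean log2 ratio of diploid over 1x in leaf (x axis) and root tip (y axis), 1 point per spot measured on all 8 arrays, with the 125 selected spots in colour. The selected spots fill the 2 opposite corners, 33 at the lower right and 92 at the upper left, and stop at root values of -0.89 and 0.90.

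The 15 spots left out for their symbols include GBSS, granule-bound starch synthase, whose 2 spots had 0.46 and 0.49 in leaf and -0.36 and -0.37 in root. Both D-type cyclin genes, which control entry into the cell cycle, were lower in diploid leaflets and higher in diploid root tips. CYCD3.3 had -1.01 and -0.90 in leaf with 0.40 and 0.36 in root, and CYCD3.2 had -0.89 with 0.33. ADH1, alcohol dehydrogenase, had 0.40 in leaf and -2.06 in root.

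The 4 arrays of a tissue were not equally uniform. Among the 33 spots higher in diploid leaflets, 27 had a positive value on all 4 leaf arrays and all 33 a negative value on all 4 root arrays. Among the 92 lower in diploid leaflets, 68 were negative on all 4 leaf arrays and 78 positive on all 4 root arrays. Of all measured spots, 30.1% had 1 sign on all 4 leaf arrays and 62.7% on all 4 root arrays. Most of those spots had means below 0.3 in size, while the rule chose by size on these same arrays. A higher share among the selected spots is therefore in large part set by the choice. One sign on every leaf array with the other on every root array was found for 27 and 57 spots of the 2 sets.

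The array of 2xR3 with 1x in leaf replicate 1 departed most often. On it, 17 of the 92 spots lower in diploid leaflets were above 0 and their median was -0.20. The medians of the same 92 spots were -0.50 for 2xR5 in that replicate, and -0.46 for 2xR3 and -0.45 for 2xR5 in replicate 2. In root the medians of these spots were 0.49 and 0.65 in replicate 4 and 0.39 and 0.29 in replicate 5, for 2xR3 and 2xR5 in that order.

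Both replicates of a tissue mostly carried the same direction. In leaf 31 of 33 and 90 of 92 spots had their sign in both replicates, and in root 33 and 89. The rule averaged these same replicates, so agreement in sign is in large part set by the choice. A size of 0.3 or more in every one of the 4 replicates was reached by 8 of the 33 and 26 of the 92 spots. In leaf 5 of the 92 spots had opposite signs in the 2 dye orientations, against 2.94% of all spots with a leaf mean of that size. None of the 125 did so in root, where the share was 0.126%.

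The duplicate spot offers a technical check on the same arrays. In 30 clones both spots met the rule, and in 65 only 1 did. Of those 65 other spots 49 had all 8 values, and 45 of the 49 had the selected spot's direction in both tissues. Their median size was 0.249 in leaf and 0.370 in root, against 0.361 and 0.416 for the selected spots of these clones, which the rule had picked for their size. The 12 sections of the print held 3 to 17 selected spots each, or 0.323% to 1.58% of the spots measured there. The share was 1.02% to 1.58% in sections 1 to 8 and 0.323% to 0.765% in sections 9 to 12. The cause of this difference by position was not tested.

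Gene symbols were available for 11 of the 95 clones, all of them LOC numbers for which no description was given here. Their functions are therefore not stated, and no sequence is shown. Of the 28 clones higher in diploid leaflets 3 had such a symbol, and of the 67 lower in diploid leaflets 8 had one. The 11 clones represent 8 genes.

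LOC102577429 had higher RNA in diploid leaflets on both of its clones, and all 4 of their spots met the rule. In leaf, clone 147938 had 0.36 for 2xR3 and 0.40 for 2xR5 over 1x in replicate 1, and 0.26 and 0.47 in replicate 2. In root it had -0.50 and -0.38 in replicate 4 and -0.60 and -0.50 in replicate 5. Every array of each tissue thus had the same direction. Clone 136829 had 0.12 and 0.59, then 0.51 and 0.14 in leaf, and -0.55 and -0.43, then -0.60 and -0.62 in root, in the same array order. Its 2 high leaf values came from the arrays with the diploid in Cy3 and its 2 low ones from those with the diploid in Cy5.

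LOC102593187 was less uniform. Its clone 140406 had 0.39 and 0.03 in leaf replicate 1, and 0.18 and 0.51 in replicate 2. In root it had -0.61 and -0.74 in replicate 4, and -0.18 and -0.36 in replicate 5. Only 1 of its spots was selected, and the duplicate spot had 4 of the 8 values. That duplicate was at -0.16 on the only leaf array where it had a value, and averaged -0.38 in root. A second clone with this symbol went the other way in root, with 0.70 and 0.79 on its 2 spots, and had -0.21 and -0.12 in leaf. The symbol therefore has no single direction in root on this array.

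Among the genes with lower RNA in diploid leaflets, LOC102605260 had the most, with 3 clones and 5 selected spots. LOC102598365, on clone 139696, had -0.10 and -0.61 in leaf replicate 1 and -0.44 and -0.45 in replicate 2. In root it had 0.12 and 0.52 in replicate 4 and 0.44 and 0.20 in replicate 5. All 8 arrays carried the directions of the rule. Its duplicate spot lay just outside, at -0.37 in leaf and 0.297 in root.

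LOC102577514, on clone 131946, also had 1 direction per tissue. Its leaf values were -0.14 and -0.42 in replicate 1 and -0.46 and -0.25 in replicate 2. Its root values were 0.42 and 0.92 in replicate 4 but 0.18 and 0.15 in replicate 5. A second clone of this gene had no leaf values and root means of 1.29 and 1.46. LOC102590108, on clone 159106, had -0.29 and -0.37, then -0.36 and -0.12 in leaf, and 0.54 and 0.42, then 0.35 and 0.23 in root. Its duplicate spot was at -0.20 in leaf and 0.42 in root.

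For 2 genes the leaf part of the rule rested on some of the arrays. LOC102577546, on clone 151487, had 0.03 for 2xR3 and -0.50 for 2xR5 in leaf replicate 1, and -0.04 and -0.51 in replicate 2. Both low values belong to 2xR5, and the duplicate spot averaged -0.07 in leaf. LOC102583699, on clone 140411, had 0.42 and -0.67 in leaf replicate 1 and -1.23 and 0.40 in replicate 2. Here the sign followed the dye orientation, with the diploid in Cy5 on both arrays above 0 and in Cy3 on both below 0. Its root values were above 0 on all 4 arrays, at 0.79, 0.97, 0.64 and 0.27.

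Of the clones without a symbol, 2 per direction are named by feature ID. They had the largest smaller value of the leaf and root sizes, each taken as the mean over the selected spots of the clone. Feature 137110 had 0.88 and 0.41, then 0.26 and 0.78 in leaf, and -1.29 and -0.81, then -1.01 and -0.53 in root. Feature 139374 had 0.28 and 0.37, then 0.20 and 0.50 in leaf, with -0.74 and -0.44, then -0.43 and -0.35 in root. Both kept 1 direction per tissue on all arrays, the first with a root mean of -0.91 over the spots of the clone.

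Feature 158936 was lower in diploid leaflets and kept 1 direction per tissue on all arrays. In leaf it had -0.64 and -0.90 in replicate 1 and -0.30 and -0.38 in replicate 2. In root it had 0.99 and 0.87 in replicate 4 and 0.87 and 0.82 in replicate 5. Feature 142984 had -0.63 and -0.74, then -0.55 and -0.26 in leaf, and 1.18 and 0.60, then 0.40 and 0.22 in root. Its root values were larger in replicate 4 than in replicate 5 for both diploids.

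**Figure D2:**
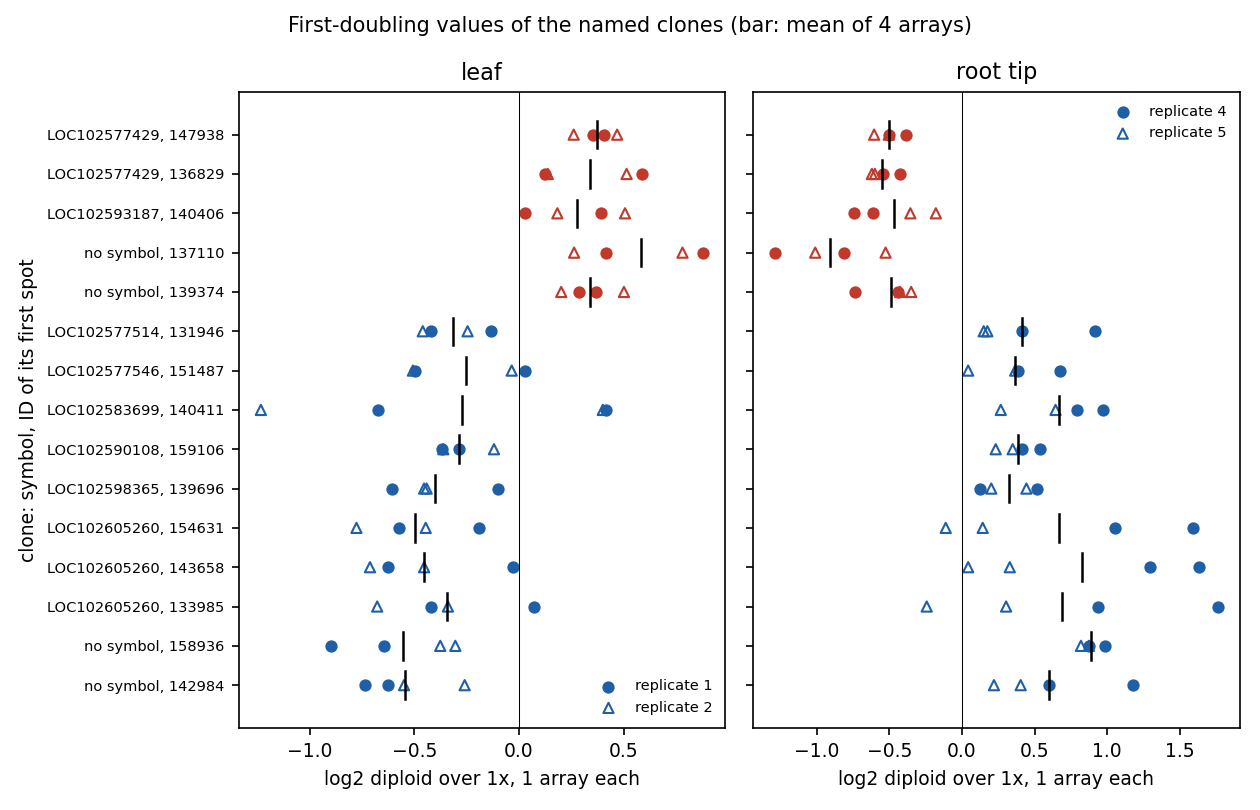
Log2 ratio of diploid over 1x on each first-doubling array for the 15 named clones, leaf on the left and root tip on the right, with a bar at the mean of the 4 arrays. LOC102577429 sits above 0 on every leaf array and below 0 on every root array, while LOC102583699 has 2 leaf values above 0 and 2 below.

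Leaf replicate 3 compared 4x with 1x directly on a dye-swapped pair whose arrays and RNA samples had no part in the choice of the spots. It holds 1 RNA sample per line, so its values carry no test. Of the 22 measured clones that were higher in diploid leaflets, 18 were also higher in 4x than in 1x, with a median of 0.18 and a range of -0.11 to 0.89. Of the 53 measured clones that were lower in diploid leaflets, 46 were lower in 4x, with a median of -0.28 and a range of -0.74 to 0.16. Over all 6749 clones measured there, 49.4% were above 0 and 50.4% below, and the median was -0.002.

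The leaf directions were thus found again in most clones in separate RNA at a higher ploidy, and in each dye orientation alone. With 4x in Cy5, 19 of 23 clones of the first set and 6 of 55 of the second were above 0, with medians of 0.24 and -0.32. With 4x in Cy3, 21 of 24 and 11 of 57 were above 0, with medians of 0.14 and -0.20. Clones raised in both tissues by the same threshold were above 0 in 191 of 217 cases with a median of 0.28, and clones lowered in both were below 0 in 172 of 180 with a median of -0.31. The clones with opposite root behaviour and those with like root behaviour were not tested against each other.

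Among the named clones, feature 158936 had the lowest replicate 3 value, -0.74, with -0.49 and -0.98 on its 2 arrays. LOC102577429 was at 0.38 and 0.33 on its 2 clones. LOC102590108, LOC102577514, LOC102598365 and LOC102583699 lay between -0.31 and -0.29. The 3 LOC102605260 clones lay between 0.03 and 0.07, where the diploids in the loops were at -0.50 to -0.34.

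**Figure D3:**
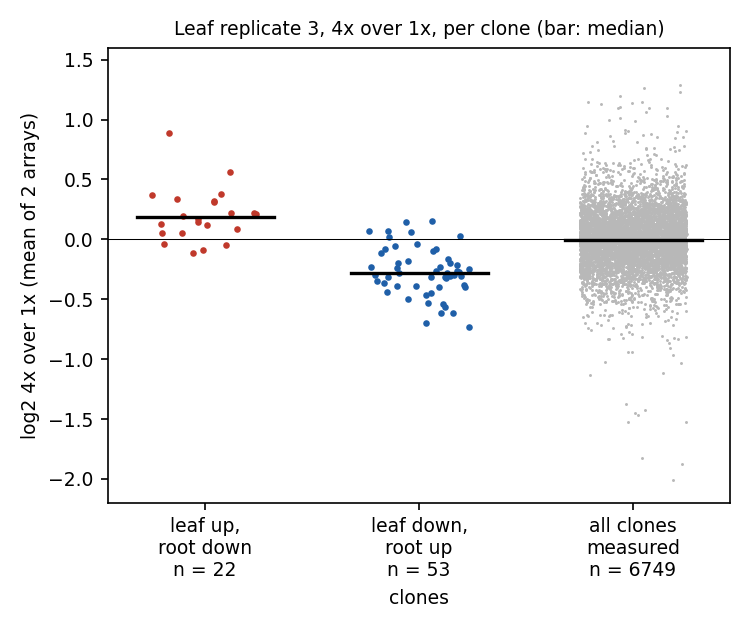
Log2 ratio of 4x over 1x in leaf replicate 3, mean of the dye-swapped arrays, per clone. Of the clones higher in diploid leaflets 18 of 22 lie above 0, and of those lower in diploid leaflets 46 of 53 lie below 0, beside all 6749 clones with a median of -0.002.

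The second doubling compared 4x with the mean of the diploids. Its arrays were not used by the rule, but the diploid RNA samples were the same, so a deviation in a diploid sample enters both doublings with opposite signs. In leaf, 17 of the 66 measured clones (25.8%) differed in limma with a Benjamini-Hochberg adjusted p under 0.05, against 646 of all 6177 clones (10.5%). Of the clones higher in diploid leaflets 4 rose further in 4x and 1 fell, of 20 measured. Of those lower in diploid leaflets 12 fell further and none rose, of 46 measured. Among all clones 5.18% rose and 5.28% fell.

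The medians followed the same order. They were 0.14 for the first set, with 15 of 20 clones above 0, and -0.15 for the second, with 32 of 46 below 0, against 0.02 for all clones. The counts depended on the arrays in the fit, and limma called fewer clones without leaf replicate 1 or 2. Leaving out either replicate leaves 1 leaf RNA sample of 4x, so counts from those fits are not weighed. With the 4x and 1x pair of replicate 3 added to the fit, 5 of these clones and 198 of all clones were called.

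The 12 clones that fell in 4x did so by 0.28 to 0.71, and all 12 were also below 0 in 4x over 1x in replicate 3. A clone without a symbol had the largest fall of the 12 and is cited here after its values were seen. Its 4x over diploid values were -1.08 against 2xR3 and -0.64 against 2xR5 in replicate 1, and -0.48 and -0.64 in replicate 2. The difference of -0.71 ± 0.09 (SE) had a limma adjusted p of 0.00215, and replicate 3 gave -0.61 for 4x over 1x. In that clone RNA was lower at each doubling in leaf.

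LOC102598365 is the only one of these 12 with a symbol. It had -0.73 and -0.32 for 4x over the diploids in replicate 1, and -0.30 and -0.43 in replicate 2. The difference was -0.44 ± 0.10 (SE, limma adjusted p = 0.0213), or 1.36-fold lower in 4x. It was -0.37 without replicate 1, a fit that leaves 1 leaf RNA sample of 4x. With the 4x and 1x pair added it was -0.36, with an adjusted p of 0.108 in limma. In replicate 3 it was at -0.60 on 1 array and at -0.03 on the other.

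The 4 clones that rose in 4x did so by 0.34 to 0.49, and 3 of them were above 0 in replicate 3. None of the 4 has a symbol. The highest of them had 0.32 and 0.26 for 4x over the diploids in replicate 1 and 0.90 and 0.49 in replicate 2, and 0.60 and 0.52 for 4x over 1x in replicate 3. The limma difference was 0.49 ± 0.09 (SE, adjusted p = 0.011).

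One clone without a symbol reversed its leaf direction. It was higher in diploid leaflets by 0.01 and 0.41 in replicate 1 and by 0.03 and 0.45 in replicate 2, where both larger values belong to 2xR5. In 4x it was lower than the diploids by 1.14, 1.25, 0.76 and 1.03 on the 4 arrays. The limma difference was -1.05 ± 0.08 (SE, adjusted p = 0.000161). For 4x over 1x the loops gave -0.82, while replicate 3, with separate RNA and no diploid in the pair, gave 0.01 and 0.16. It was chosen for mention after its values were seen.

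In root the second doubling gave no call. None of 93 measured clones and none of all 8245 passed an adjusted p under 0.05 in limma (0% called), with 12 and 582 at an unadjusted p under 0.05. The smallest adjusted p among these clones was 0.355 in limma. The clones higher in diploid leaflets had a root median of 0.00 for 4x over the diploids, with 13 of 28 below 0. The clones lower in diploid leaflets had a root median of -0.04, with 43 of 65 below 0, against a median of 0.01 for all clones. Limma called some of these clones, and some of all clones, without replicate 4 or without replicate 5. Such fits leave 1 root RNA sample per line, cover fewer clones and take the spread from both tissues.

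In LOC102577429 the root replicates differed. For 4x over the diploids clone 147938 had 0.10 and -0.20 in replicate 4 and -0.62 and -0.50 in replicate 5. Clone 136829 had 0.05 and -0.15, then -0.72 and -0.59. The differences of -0.31 and -0.35 had adjusted p-values of 0.717 for both clones in limma. In leaf both clones averaged 0.22 for 4x over the diploids, with limma adjusted p-values of 0.142 and 0.147. The leaf replicates differed too, at 0.02 for both clones in replicate 1 and at 0.42 and 0.43 in replicate 2.

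**Figure D4:**
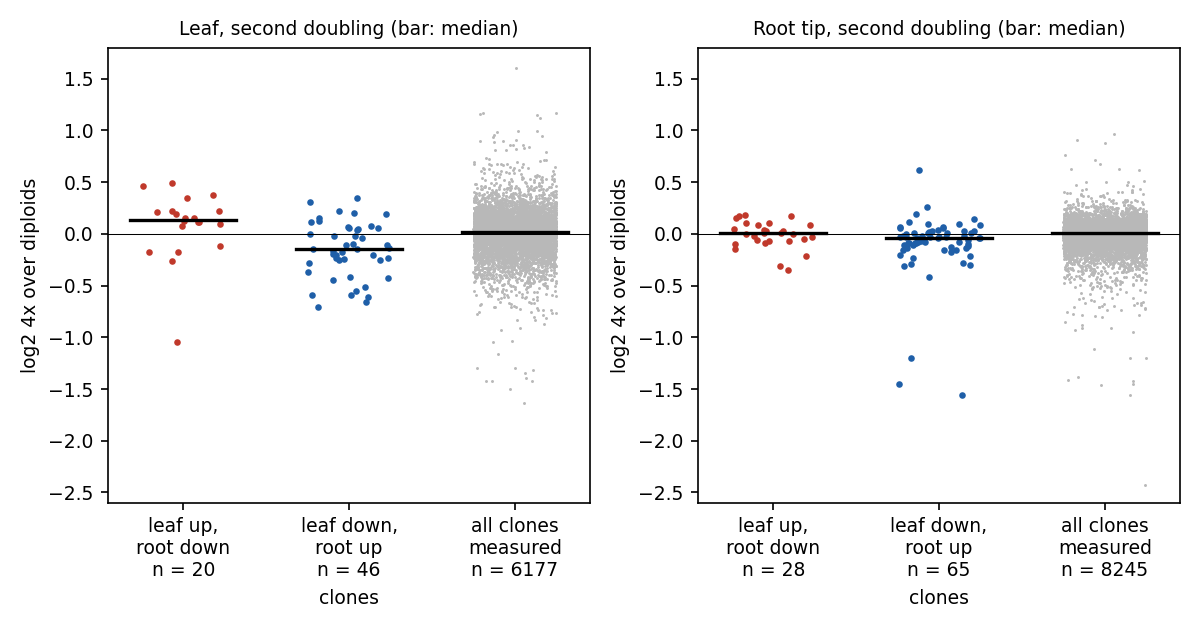
Log2 ratio of 4x over the diploids per clone in leaf and in root tip, for clones higher in diploid leaflets, clones lower in diploid leaflets and all clones measured. In leaf the 2 sets centre on 0.14 and -0.15, and in root on 0.00 and -0.04.

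Measured over 1x within the loops, the 4x leaflets had a median of 0.50 for 20 clones of the first set and -0.45 for 46 clones of the second. All but 1 of the first and all of the second kept the direction seen in the diploids. In 4x root tips the medians were -0.38 for 28 clones and 0.39 for 65, with 28 and 62 keeping their direction. Each such value is the sum of the first doubling, which chose the spots, and the second. Its direction is therefore in large part set by the choice, and it is given without a test.

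No single clone was called as different between the diploid lines. For 2xR5 against 2xR3 limma called 0 of 66 of these clones in leaf and 0 of all 6177 (0%), with 11 and 593 at an unadjusted p under 0.05. In root it called 0 of 93 and 0 of 8245 (0%), with 1 and 301 unadjusted. In leaf 15 of 20 clones of the first set were higher in 2xR5 than in 2xR3 and 33 of 46 of the second were lower, with medians of 0.07 and -0.08. Of all clones 52.4% were higher in 2xR5. The difference between the diploid lines rests in part on the arrays of each diploid with 1x, which chose the spots. The counts for the 2 sets may therefore not be independent of the choice. The medians are at or below 0.087, the median SE of such a difference for 1 clone, which is not the uncertainty of a median over clones. Whether the sets differ as a whole between the diploid lines was not tested.

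The second doubling was also compared between tissues in 1 limma fit of both. Tissue cannot be told apart here from plant age or from the amplification of the root RNA. The difference, leaf minus root, passed for 6 of 65 clones measured in both tissues (9.23%), against 133 of 5281 of all clones (2.52%). The 6 were 3 positive and 3 negative differences. The unnamed clone that reversed in leaf was among them, with a difference of -1.23 ± 0.12 (SE, limma adjusted p = 0.000319). A further pair were LOC102605260 clones. The count changed when 1 replicate was left out, and it was 3 without replicate 3. Leaving out replicate 1, 2, 4 or 5 leaves 1 RNA sample of 4x in a tissue, so counts from those fits are not weighed.

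LOC102605260 was uneven between root replicates. Its symbol also stands beside PATB1 in the annotation of other clones on the array. PATB1 encodes patatin, the major storage glycoprotein of the potato tuber, which has lipid acyl hydrolase activity. Clones of a gene family can also bind RNA of other family members, which was not tested here, so the values belong to the clones and not to 1 gene.

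The first-doubling rise of LOC102605260 in root was a feature of replicate 4. Clone 154631 had 1.05 for 2xR3 and 1.59 for 2xR5 over 1x in replicate 4, and 0.14 and -0.11 in replicate 5. Clone 143658 had 1.30 and 1.63 in replicate 4, and 0.33 and 0.04 in replicate 5. Clone 133985 had 0.94 and 1.76 in replicate 4, and 0.30 and -0.24 in replicate 5. The means of replicate 4 were 1.32 to 1.46 and those of replicate 5 were 0.02 to 0.19, without overlap on any array.

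In leaf the 3 clones were lower in the diploids. Clone 154631 had -0.19 and -0.57 in replicate 1, and -0.78 and -0.45 in replicate 2. Clone 143658 had -0.03 and -0.62, then -0.71 and -0.45. Clone 133985 had 0.07 and -0.42, then -0.68 and -0.34. One array, 2xR3 in replicate 1, was near 0 for the last pair.

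In 4x root tips the 3 clones were lower than in the diploids in both replicates. Clone 154631 had -0.85 and -1.42 in replicate 4, and -1.26 and -1.28 in replicate 5. The other clones had -0.86 and -1.79 with -2.08 and -1.49, and -0.85 and -1.58 with -1.90 and -1.47. The differences of -1.20, -1.56 and -1.45 are 2.30 to 2.94-fold lower in 4x. All 12 array values were negative, but the limma adjusted p was 0.428 to 0.472, with unadjusted values of 0.006 to 0.011.

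In 4x leaflets the same clones gave 0.21 to 0.35 over the diploids, with limma adjusted p-values of 0.126 to 0.411. The leaf replicates differed here as well, at -0.25 to 0.01 in replicate 1 and 0.65 to 0.69 in replicate 2. For the leaf minus root difference, clone 143658 had 1.91 ± 0.40 (SE, limma adjusted p = 0.0253), and clone 154631 had 1.505 ± 0.351 (SE, limma adjusted p = 0.0411). Clone 133985 had 1.66 ± 0.44, with an adjusted p of 0.0667 in limma. Both calls were lost without replicate 3, with robust eBayes, and with values required on 75% of the arrays. Leaving out replicate 1, 2 or 3 gave differences of 1.16 to 2.25. The fits without replicate 1 or 2 leave 1 leaf RNA sample of 4x, so only their differences are given.

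The 4 clones annotated with PATB1 and other symbols, which the rule leaves out, had closely similar values. Their leaf first-doubling means were -0.56 to -0.44 and their root means 0.56 to 0.70. The root values came from replicate 4 as well, at 1.21 to 1.47, against -0.10 to 0.03 in replicate 5. For 4x over the diploids they had -1.42 to -1.11 in root, and 0.11 to 0.20 in leaf. The leaf values split by replicate, with all 4 clones below 0 in replicate 1, at -0.26 to -0.17, and above 0 in replicate 2, at 0.47 to 0.57. These values were not assigned to single family members.

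**Figure D5:**
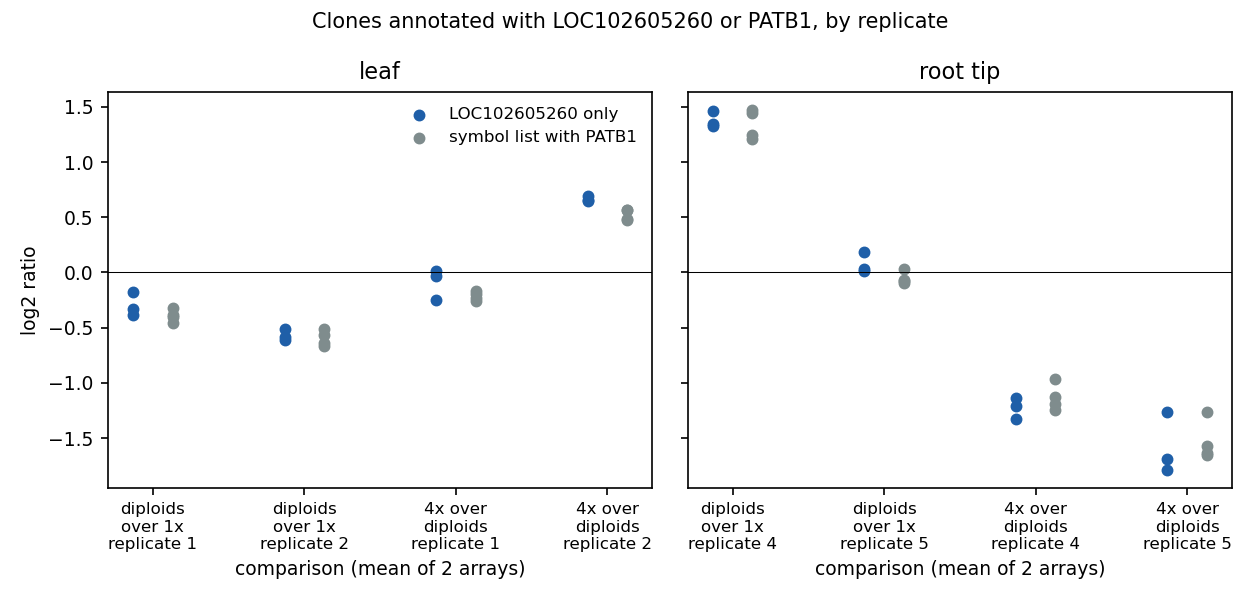
Log2 ratios by replicate (mean of 2 arrays) for the 3 LOC102605260 clones and the 4 clones annotated with PATB1 and other symbols, in leaf and root tip, for 4x over the diploids and for the diploids over 1x. In root the diploid values lie at 1.21 to 1.47 in replicate 4 and at -0.10 to 0.19 in replicate 5, while 4x over the diploids is negative in both.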

How the data were processed

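Each array file holds 1 log2 ratio per spot, deposited by the authors after their own processing. Per the submitters' processing notes limma was used there, while its version and the methods for background and within-array correction are not given in the sources used here. No intensities were used, so dim and saturated spots could not be examined. Every ratio was turned so that the higher ploidy stands on top. Gene symbols came from the platform annotation (1 symbol for 1630 spots, several for 180, none for 30638). The print layout gave 15360 pairs of duplicate spots, and a clone's value is their mean. Within each loop the 4 ratios were solved by least squares for a value per RNA sample, and lmFit and eBayes from limma 3.58.1 (R 4.3.3) were run on these with terms for line and replicate, the replicate being a block because each loop is 1 replicate by construction. The leaf fit left out the 4x with 1x pair of replicate 3. A call is a Benjamini-Hochberg adjusted p under 0.05 over all clones with a value on every array of the fit. Precision is limited by the few arrays.

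The selected spots, gene lists and tests were chosen with earlier results of these data known. Every selected clone with a single LOC symbol is named, and the 2 clones without a symbol per direction with the largest smaller value of the leaf and root sizes (means over the selected spots of a clone). Alternatives were another threshold, scaled arrays, clone means, missing values, single spots, robust eBayes, the replicate block and leaving out each replicate. On simulated data the fit recovered 58% of changes of 0.5 and 94% of changes of 1 (log2) among 6177 leaf clones, 68% and 95% among 8245 root clones, and 53% and 93% for the tissue difference among 5281. The simulated noise was independent between arrays, so no deviation was shared by the arrays of an RNA sample or a replicate. These shares therefore do not give the power on the real arrays, and the absence of root calls cannot be read from them.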

Additional observations from a re-analysis of the deposited data

Results flagged for a closer look

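In 59 groups of 4 array values of the named clones, 3 had a single value far from the others by Dixon's criterion. Chance alone gives about 1 in 20, so 3 of 59 is near the share that chance gives. LOC102598365 (clone 139696) had -0.36 on 1 root array of 4x with 2xR5, in replicate 4, and the nearest of its other values for 4x over the diploids was 0.05. Feature 139374 had -0.36 on the same root array, and its nearest other value was 0. In leaf, feature 137110 had -0.06 for 4x over 2xR5 in replicate 1, with the nearest other value at 0.06.

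The second doubling differed between leaf and root by a test of the difference itself for LOC102605260 in 2 clones. Leaf minus root was 1.91 for clone 143658 and 1.5 for clone 154631. The remaining clone of this symbol, 133985, had 1.66 and did not pass (limma adjusted p = 0.0667). Both calls were lost in several of the alternative fits given above.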

How the results depend on the processing

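The number of selected spots followed the threshold, with 451 at 0.2 and 7 at 0.5 against 125 at 0.3. Scaling the arrays to equal spread gave 50 spots, of which 48 were among the 125, and leaving out 1 replicate gave 96 to 231, the most without replicate 1. Applied to the mean of duplicate spots, the rule gave 62 clones, 55 of them among the 95. In replicate 3 the median of the clones higher in diploid leaflets was 0.30 over single spots.

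For the leaf second doubling 17 calls became 5 with the 4x and 1x pair added, and 0 to 17 without 1 replicate. For root, 0 calls became 3 to 5 without 1 replicate. The replicate block is part of the design of the loops. With no replicate block there were 15 calls in leaf, 1 in root and 9 for the tissue difference. The 6 calls of the tissue difference became 3 with values required on 75% of the arrays and 3 with each spot alone. They changed as well when 1 replicate was left out. Over all clones, the 646 calls of the leaf second doubling became 358 after scaling, 427 with the 75% rule, 198 with the added pair and 4 to 483 without 1 replicate. The 0 calls in root became 13 after scaling, 57 with no replicate block and 22 to 67 without 1 replicate. For 2xR5 against 2xR3 the 0 calls became at most 7 in leaf and 5 in root. The 133 calls of the tissue difference became 224 with no replicate block and were fewer without replicate 2 or 5. Leaving out replicate 1 or 2 leaves 1 leaf RNA sample of 4x, and leaving out replicate 4 or 5 leaves 1 root RNA sample per line. Counts from those fits are not weighed.

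Some named clones changed sign when 1 replicate was left out. For 4x over the diploids in leaf, LOC102605260 ranged from -0.036 to 0.646 (clone 154631) and from -0.2465 to 0.658 (clone 133985), and LOC102590108 from -0.149 to 0.0648. The tissue difference ranged from -0.143 to 0.1435 for LOC102590108, which was at -0.0025 after scaling. It ranged from -0.5325 to 0.0733 for LOC102577514, from -0.488 to 0.204 for LOC102583699 and from -0.171 to 0.512 for feature 142984. None of these had passed the test with all replicates, and the cause was not tested. Of the other recomputed values for named clones 176 kept sign and side of the threshold, 7 newly passed it and 12 no longer did.

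Root comparisons had 2 RNA samples per line and leaf comparisons at most 3. Spot intensities, and with them the distance from background, were not used here.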
